A study of Bos taurus with 15 samples.

Results

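The sirtuins are the NAD-dependent deacylases SIRT1 to SIRT7, and their mRNAs were followed in bovine embryos cultured with or without extracellular vesicles of the oviduct (oEVs). The members were the rows of the deposited count tables that carry the symbols SIRT1, SIRT2, SIRT3, SIRT4, SIRT5, SIRT6 and SIRT7, so that 7 of the 34773 annotated genes were taken. The table that the authors had filtered for low counts held 10832 genes and 6 of the 7 sirtuins. SIRT3 was found only among the unfiltered genes.

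Sirtuins remove acetyl and other acyl groups from lysines and use up NAD in each reaction, so their activity is tied to the supply of NAD and to the metabolic state of the cell. SIRT1, SIRT6 and SIRT7 are mainly nuclear, SIRT2 is mainly cytoplasmic, and SIRT3, SIRT4 and SIRT5 are mitochondrial. In the preimplantation embryo, sirtuins are best known for their links to histone deacetylation, to the response to oxidative stress and to mitochondrial metabolism.

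Embryos of Bos taurus were produced by in vitro fertilisation and cultured in 3 ways. Control embryos (Co) received no oEVs, FeEV embryos received fresh oEVs and FoEV embryos received oEVs that had been frozen. The labels give 7 days of culture and the study's methods 8 days. The oEVs came from the oviductal fluid of slaughtered cows, and no genotype or breed is stated for the embryos. By the paper's account, fresh and frozen oEVs came from the same oviducts and differed only in the freezing and thawing. Each of the 15 libraries, 5 per treatment, was made from 1 ng of total RNA of a pool of 8 to 14 embryos, so an embryo that differed from the rest of its pool cannot be seen. The authors chose the pools with the best RNA for sequencing.

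The libraries held between 2136713 and 4058887 counts on genes. Depth differed between the treatments, with 2571558 to 2977004 counts in Co, 2136713 to 3808602 in FeEV and 3392613 to 4058887 in FoEV libraries. The share of counts on rRNA genes was similar, with means of 21.8% for Co, 20.7% for FeEV and 21.3% for FoEV libraries and SDs of 4.87, 3.84 and 4.597. Markers of the blastocyst lineages were present in every treatment. The blood gene HBB had 0 counts in all 15 libraries, and OVGP1, the oviduct-specific glycoprotein gene, had at most 6 counts in a library. PAX8, also expressed in oviduct epithelium, and the granulosa genes FSHR and CYP19A1 passed the authors' filter. They had 396, 407 and 1026 counts over the 15 libraries. Levels are given as CPM, the counts per 1000000 counts of a library, scaled by TMM factors unless stated otherwise. They are not corrected for transcript length, so a level is compared between libraries and not between genes.

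SIRT1 (gene 613629) deacetylates histones and transcription factors such as the FOXO factors. In TMM-scaled CPM, SIRT1 was lower in every FoEV pool than in every control pool. Its level in Co replicates 1 to 5 was 251.6, 283, 269.6, 315 and 251.2 CPM. In FeEV replicates 1 to 5 it was 244, 267, 215, 293 and 213 CPM. In FoEV replicates 1 to 5 it was 193, 226, 233, 188 and 205 CPM. The highest FoEV library thus stood below the lowest Co library, whereas FeEV libraries overlapped with both other treatments. This separation depended on the TMM scaling. In CPM of all counts FoEV and Co libraries overlapped, with 220 CPM in Co replicate 5 and 237 CPM in FoEV replicate 2. The mean was 209 ± 20.0 CPM in FoEV, 247 ± 34.3 in FeEV and 274 ± 26.7 in Co embryos (SD, n = 5). SIRT1 rested on 562 to 895 reads in each library, and its spread between pools, with a coefficient of variation of 9.57% to 13.9%, was larger than the counting error of 3.59% to 3.71% that such numbers carry.

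The log2 fold change of SIRT1 in FoEV treatment vs. Co was -0.39 with a standard error of 0.10 and a 95% interval from -0.60 to -0.18, a level 23.8% lower. SIRT1 was rank 76 of the 10832 genes by unadjusted p (0.000736, edgeR quasi-likelihood test), and its adjusted p of 0.105 did not pass the threshold of 0.05. At that threshold 0 of the 6 sirtuins were called, beside 0.00923% of all genes. Groups that did not overlap and were lower in FoEV were found for 1 of 6 sirtuins, SIRT1, and for 1.35% of all genes. The call depended on the test. With the robust dispersion and likelihood ratio test of the study's methods, as rerun here, the adjusted p of SIRT1 was 0.0164, and 311 genes were called. The paper describes SIRT1 as downregulated in FoEV embryos and reports fewer differentially expressed genes than this rerun called. With the Wald test of DESeq2 the adjusted p of SIRT1 was 0.0163, and it was 0.0261 when the unfiltered table was fitted. The fold change itself ran from -0.43 to -0.39 over the 10 alternatives that kept every library. In bulk RNA of whole embryos, fewer cells of a type that uses a gene and less RNA of that gene per cell cannot be told apart.

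Depth and some markers of the trophectoderm, the outer epithelium of the blastocyst, differed between the same treatments. When counts were thinned to the smallest library, the log2 fold change of SIRT1 was -0.43 (edgeR adjusted p = 0.0802). The summed level of the 4 trophectoderm markers ranged from 5916 to 7724 CPM of all counts in Co, from 6228 to 9670 in FeEV and from 7526 to 11539 in FoEV libraries. Most of this sum came from the keratins KRT8 and KRT18, with means of 4178 and 2620 CPM in Co and 5043 and 3882 in FoEV. CDX2 averaged 31.9 CPM in Co and 37.2 in FoEV, and GATA3 203 and 233.5. In FoEV treatment vs. Co, 3 of these 4 markers had a higher level with an unadjusted p under 0.05, as did 8.18% of all genes, and 0 of 4 passed the adjusted threshold. The part of these markers in the SIRT1 difference was not tested.

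SIRT1 in FeEV treatment vs. Co differed by -0.16 on the log2 scale, with an interval from -0.36 to 0.05 (edgeR unadjusted p = 0.135). FoEV treatment vs. FeEV treatment gave -0.24 with an interval from -0.44 to -0.03 (edgeR unadjusted p = 0.0276, adjusted p = 0.544). The level in FeEV libraries therefore lay between those of the other treatments, and it was not distinguished from either at the adjusted threshold. FoEV and FeEV treatments were compared with the same 5 Co libraries.

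SIRT6 and SIRT7 are the other nuclear sirtuins. SIRT6 acts at telomeres and in DNA repair, and SIRT7 resides in the nucleolus, where it is linked to transcription of ribosomal DNA. SIRT6 stood at 5.47, 6.41, 3.87, 4.82 and 4.104 CPM in Co, at 3.87, 2.599, 2.19, 6.38 and 6.15 in FeEV and at 2.78, 2.77, 3.86, 8.01 and 5.18 in FoEV libraries. The 3 treatments overlapped. FoEV replicate 4 lay above the Co range, and FeEV replicates 2 and 3 and FoEV replicates 1, 2 and 3 lay below it. With 7 to 24 reads per library, the counting error of SIRT6 was 25.0% to 28.2%, beside a coefficient of variation between pools of 48.4% in FoEV, 46.0% in FeEV and 21.0% in Co embryos. Its log2 fold change in FoEV treatment vs. Co was -0.16 with an interval from -0.88 to 0.55, which includes both 0 and the value of SIRT1.

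SIRT7 stood at 17.1, 14.8, 7.74, 12.4 and 6.16 CPM in Co, at 13.7, 11.5, 10.01, 7.74 and 15.4 in FeEV and at 11.1, 10.8, 10.5, 21.4 and 13.6 in FoEV libraries. These ranges overlapped as well, with FoEV replicate 4 alone above the highest Co library. The log2 fold change was 0.19 in FoEV treatment vs. Co, with an interval from -0.36 to 0.74, and it was -0.023 when FoEV replicate 4 was left out.

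**Figure D1:**
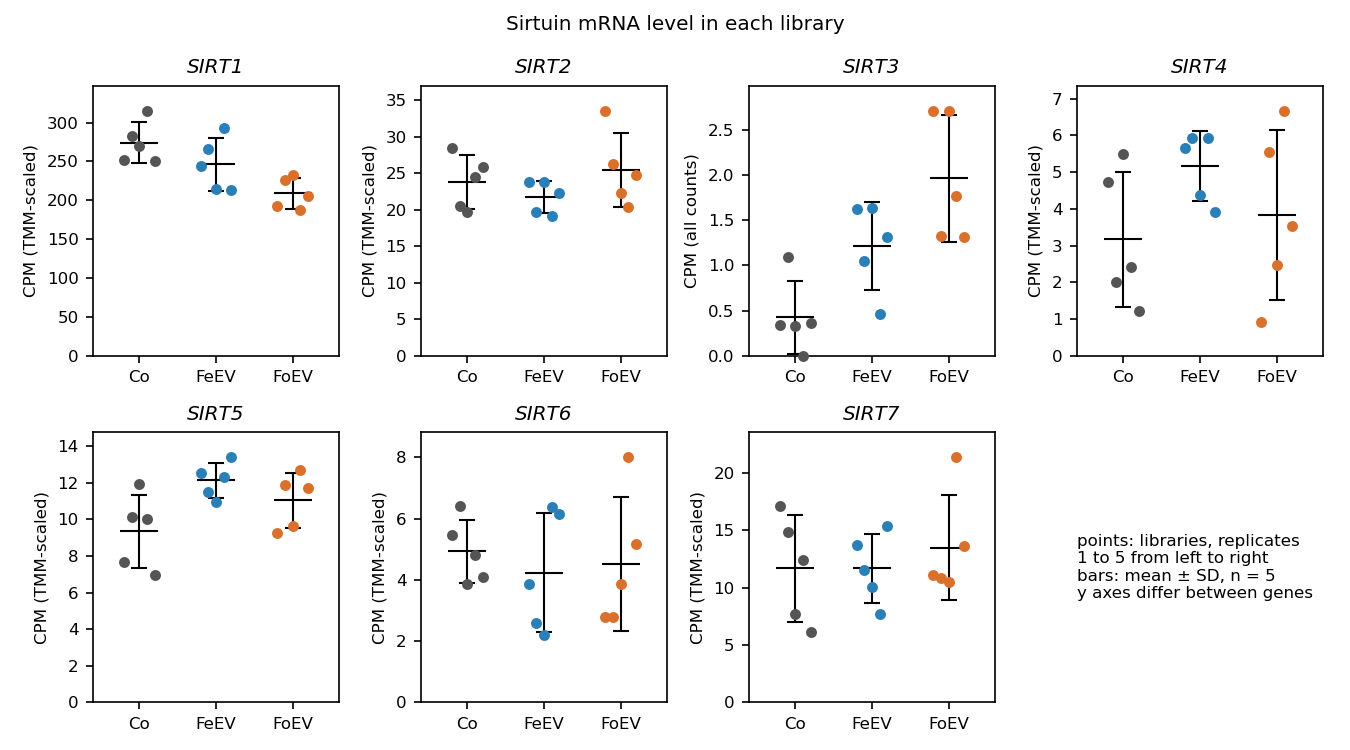
Level of each sirtuin in CPM (y axis, a scale of its own for each gene) in the 5 Co, 5 FeEV and 5 FoEV libraries. Points are libraries, replicates 1 to 5 from left to right, and bars give the mean and SD. SIRT1 and SIRT3 are the genes whose FoEV and Co points do not overlap as drawn. SIRT1 is lower at 209 against 274 TMM-scaled CPM, and SIRT3 is higher at 1.96 against 0.427 CPM of all counts. In CPM of all counts, the FoEV and Co libraries of SIRT1 overlap.

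SIRT2, the mainly cytoplasmic sirtuin that deacetylates tubulin and regulators of mitosis, was similar in the 3 treatments. It was measured at 28.4, 20.6, 19.7, 24.5 and 25.9 CPM in Co, at 23.8, 19.7, 23.8, 19.1 and 22.3 in FeEV and at 33.6, 26.2, 22.3, 20.4 and 24.8 in FoEV libraries. The FoEV replicate 1 library was the highest, and the other 14 libraries lay between 19.1 and 28.4 CPM. The log2 fold change in FoEV treatment vs. Co was 0.11, with an interval from -0.20 to 0.42, and it was -0.015 without FoEV replicate 1. SIRT2 rested on 42 to 145 reads per library.

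SIRT3, the main mitochondrial deacetylase, had few reads, and its mean level was higher in both oEV treatments than in Co. Its raw counts were 1, 3, 1, 0 and 1 in Co, 5, 3, 5, 1 and 5 in FeEV, and 11, 5, 10, 6 and 5 in FoEV libraries. Every Co library was thus at or under 3 counts, the number taken as the floor of detection, and every FoEV library was above it. In CPM of all counts, SIRT3 averaged 1.96 ± 0.703 in FoEV, 1.22 ± 0.485 in FeEV and 0.427 ± 0.403 in Co embryos (SD, n = 5). The FoEV and Co libraries did not overlap, which was the case in this direction for 0.852% of the 25470 genes of the unfiltered table with any count. The difference was 1.53 CPM (exact permutation test, two-sided, with a p of 0.00794 that is the lowest possible for 5 against 5 libraries). Adjusted over the 3 comparisons, this exact permutation p was 0.0238.

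Summed over 5 libraries, SIRT3 had 37 counts in FoEV and 6 in Co, a depth-corrected ratio of 4.59 with a 95% counting interval from 1.92 to 13.3. FeEV embryos had 19 counts and a ratio of 2.96 to Co, with an interval from 1.14 to 9.05. That difference was 0.790 CPM (exact permutation p = 0.0238, adjusted over the 3 comparisons 0.0357), and the p was 0.0556 when FeEV replicate 1, 3 or 5 was left out. FoEV and FeEV embryos differed by 0.745 CPM (exact permutation p = 0.111). A fit of the whole unfiltered table gave SIRT3 a log2 fold change of 2.09 in FoEV treatment vs. Co with a standard error of 0.68, and its edgeR adjusted p of 0.130 was above the threshold. For FeEV treatment vs. Co that fit gave 1.44 with a standard error of 0.73 (edgeR adjusted p = 0.863), and the FeEV and Co libraries overlapped. Every FoEV library was also deeper than every Co library. The intervals cover counting error only, because they rest on summed counts and leave out the spread between pools. They also make no allowance for PCR copies of a molecule that are counted as separate reads.

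SIRT4 and SIRT5 are mitochondrial sirtuins with little deacetylase activity, SIRT5 being known for removing succinyl, malonyl and glutaryl groups. SIRT5 was measured at 7.66, 10.1, 11.9, 10.03 and 6.98 CPM in Co, at 12.5, 11.5, 10.9, 12.3 and 13.4 in FeEV and at 9.26, 11.9, 9.64, 12.7 and 11.7 in FoEV libraries. Of the FeEV libraries, 3 lay above the highest Co library and all lay above the Co mean of 9.34 ± 2.01 CPM (SD, n = 5). The log2 fold change in FeEV treatment vs. Co was 0.37 with a standard error of 0.18 and an interval from -0.01 to 0.75 (edgeR unadjusted p = 0.0582). Its value in FoEV treatment vs. Co was 0.23, with an interval from -0.15 to 0.61.

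SIRT4 was measured at 4.74, 2.02, 5.48, 2.41 and 1.23 CPM in Co, at 5.66, 5.94, 4.38, 5.92 and 3.91 in FeEV and at 0.926, 5.55, 2.48, 6.68 and 3.54 in FoEV libraries. Co and FoEV libraries were spread over most of the range of the gene, whereas the FeEV libraries lay close together in its upper part. The log2 fold change was 0.65 in FeEV treatment vs. Co, with an interval from -0.23 to 1.53, and 0.21 in FoEV treatment vs. Co, with an interval from -0.69 to 1.103. SIRT4 rested on 3 to 22 reads per library, and both intervals included 0.

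**Figure D2:**
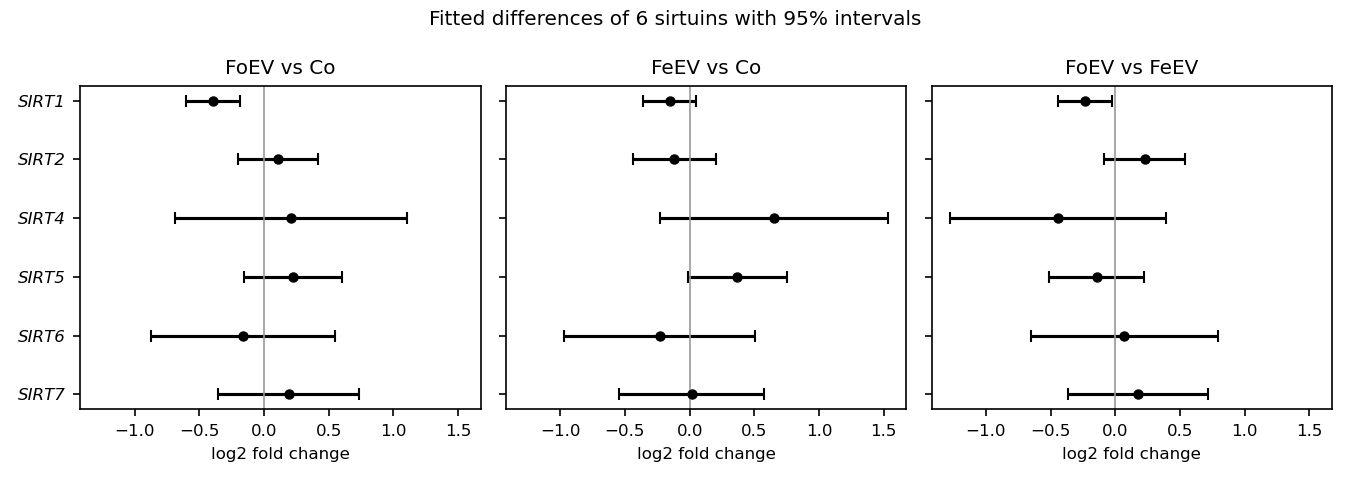
Log2 fold change (x axis) of the 6 sirtuins in the fit for each of the 3 comparisons. Points are fitted values and bars 95% intervals. The intervals of SIRT1 lie below 0 in FoEV vs. Co, from -0.60 to -0.18, and in FoEV vs. FeEV, from -0.44 to -0.03. All other intervals include 0.

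Across the 6 sirtuins in the fit, 0 passed the adjusted threshold in FeEV treatment vs. Co and 0 in FoEV treatment vs. FeEV treatment, as did 0% of all genes in both. At an unadjusted p under 0.05, SIRT1 was lower in FoEV treatment vs. Co, where 15.1% of all genes passed in either direction and 6.88% were lower, and in FoEV treatment vs. FeEV treatment, where 8.52% passed and 3.69% were lower. In FeEV treatment vs. Co, 0 of 6 sirtuins passed, beside 4.15% of all genes. The median log2 fold change of the 6 genes was 0.15 in FoEV treatment vs. Co, -0.05 in FeEV treatment vs. Co and -0.04 in FoEV treatment vs. FeEV treatment. The medians of all genes were 0.015, 0.0039 and 0.0092 in the same order. In FoEV treatment vs. Co the values of SIRT1 and SIRT6 were negative and the other 4 were positive.

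SIRT1 held most of the reads counted on the 7 genes. Its share of these reads was 77.5% ± 3.52 in FoEV, 81.2% ± 3.05 in FeEV and 83.7% ± 2.26 in Co libraries (SD, n = 5), with ranges from 72.5% to 81.9%, from 77.3% to 84.96% and from 79.8% to 85.3%. Since longer transcripts give more reads, this is a share of reads and not of molecules. Among the 15 pairs of the 6 sirtuins, Pearson's r of log2 CPM over the 15 libraries ran from -0.56 for SIRT2 and SIRT4 to 0.66 for SIRT4 and SIRT5. Most of these genes had few reads, and the values are given as a description only.

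Sirtuins draw on the same NAD as other enzymes and act on shared substrates, so 79 genes around them were examined in 8 lists, of which 63 were in the filtered table. At the adjusted threshold 0 of the 63 genes were called in any comparison. With an unadjusted p under 0.05 in FoEV treatment vs. Co there were 4 genes with higher and 7 with lower levels, or 17.5% beside 15.1% of all genes. FeEV treatment vs. Co had 0 such genes, and FoEV treatment vs. FeEV treatment had 2 higher and 5 lower ones, or 11.1% beside 8.52% of all genes, of which 4.83% were higher and 3.69% lower. These shares were close to the background, and the genes named next are described by their values. Some genes counted here are not reported singly.

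Of the 6 tested genes of NAD synthesis, NADK2, the mitochondrial NAD kinase, was measured at 25.5 ± 3.27 CPM in FoEV and 34.0 ± 5.00 in Co embryos (SD, n = 5). Its log2 fold change was -0.42 with a standard error of 0.14 (edgeR adjusted p = 0.179), and the other 5 genes of the list had an unadjusted p above 0.05. NAMPT, the rate-limiting enzyme of the salvage pathway that returns nicotinamide to NAD, was among them, with a log2 fold change of -0.17 and an interval from -0.43 to 0.10. The genes NMRK2 and NNMT had 0 counts in every library.

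Among other NAD-consuming enzymes, both tankyrases had lower levels in FoEV than in Co libraries at the unadjusted threshold, as did 6.88% of all genes. Tankyrases attach chains of ADP-ribose to proteins at telomeres and in the WNT pathway. TNKS ranged from 92.3 to 114 CPM in Co, from 98.8 to 105 in FeEV and from 77.1 to 96.4 in FoEV libraries. In TMM-scaled CPM, FoEV and FeEV libraries did not overlap, as was the case with lower FoEV levels for 0.748% of all genes. This separation too depended on the TMM scaling, since in CPM of all counts FoEV replicate 2 lay above FeEV replicate 2. The log2 fold change of TNKS was -0.36 in FoEV treatment vs. Co (standard error 0.09, edgeR adjusted p = 0.0932). It was -0.28 in FoEV treatment vs. FeEV treatment (edgeR adjusted p = 0.453). TNKS2 differed by -0.27 in FoEV treatment vs. Co (adjusted p = 0.159). PARP1, the main DNA damage-dependent poly(ADP-ribose) polymerase, was at 285.7 ± 43.9 CPM in FoEV and 285.7 ± 47.0 in Co embryos (SD, n = 5).

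Known regulators of SIRT1 gave values in both directions. RPS19BP1, also called AROS, an activator of SIRT1, had log2 fold changes of 0.32 in FoEV treatment vs. Co (edgeR adjusted p = 0.322) and 0.38 in FoEV treatment vs. FeEV treatment (adjusted p = 0.523). DYRK1A, a kinase that phosphorylates SIRT1, differed by -0.21 and -0.25 in the same comparisons, and only the latter had an unadjusted p under 0.05. CCAR2, also called DBC1, which inhibits SIRT1, differed by 0.11 in FoEV treatment vs. Co, with an interval from -0.10 to 0.31.

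Known substrates of sirtuins were grouped by compartment. Of 16 nuclear substrates, HIF1A, the oxygen-regulated transcription factor, differed by -0.29 in FoEV treatment vs. Co (edgeR adjusted p = 0.240). CTNNB1, or β-catenin, differed by -0.17 in FoEV treatment vs. FeEV treatment (adjusted p = 0.577). Among 6 tested cytoplasmic substrates, the values in FoEV treatment vs. Co were 0.21 for ACLY, which makes acetyl-CoA from citrate, 0.22 for CDC20, an activator of the anaphase-promoting complex, and -0.30 for BUB1B, a checkpoint kinase-like protein that SIRT2 deacetylates. These 3 genes passed the unadjusted threshold, beside 15.1% of all genes, and had edgeR adjusted p between 0.216 and 0.310.

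Of the 10 tested mitochondrial substrates, 0 had an unadjusted p under 0.05 in any comparison. Of all genes, 15.1% did so in FoEV treatment vs. Co, 4.15% in FeEV treatment vs. Co and 8.52% in FoEV treatment vs. FeEV treatment. GLUD1, the glutamate dehydrogenase that SIRT4 inhibits, differed by -0.09 in FoEV treatment vs. Co, and PDHA1 of the pyruvate dehydrogenase complex by 0.09. The list median was 0.09 in FoEV treatment vs. Co beside 0.015 for all genes. For RNA polymerase I transcription, on which SIRT7 acts, all 5 genes had negative values in FoEV treatment vs. Co, as did 5167 of all 10832 genes. Their median was -0.14. The 1 gene of the 5 to pass the unadjusted threshold was POLR1B at -0.24 (edgeR adjusted p = 0.260), beside 6.88% of all genes that were lower. In FeEV treatment vs. Co, 4 of the 5 values were positive, with a median of 0.033. In FoEV treatment vs. FeEV treatment the median was -0.16. POLR1A passed the unadjusted threshold there at -0.24 (edgeR adjusted p = 0.548), beside 3.69% of all genes that were lower.

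The zinc-dependent histone deacetylases are the other large class of lysine deacetylases. In FoEV treatment vs. Co, 1 of 9 tested genes passed the unadjusted threshold, beside 15.1% of all genes. The same gene, HDAC2, was the only one of the 9 to pass it in FoEV treatment vs. FeEV treatment, beside 8.52% of all genes. HDAC2, a nuclear enzyme of several corepressor complexes, ranged from 63.1 to 84.0 CPM in Co, from 62.6 to 96.1 in FeEV and from 52.1 to 67.1 in FoEV libraries. Its FoEV libraries overlapped with those of both other treatments. The log2 fold change was -0.31 in FoEV treatment vs. Co (standard error 0.12, edgeR adjusted p = 0.235) and -0.33 in FoEV treatment vs. FeEV treatment (edgeR unadjusted p = 0.0132).

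**Figure D3:**
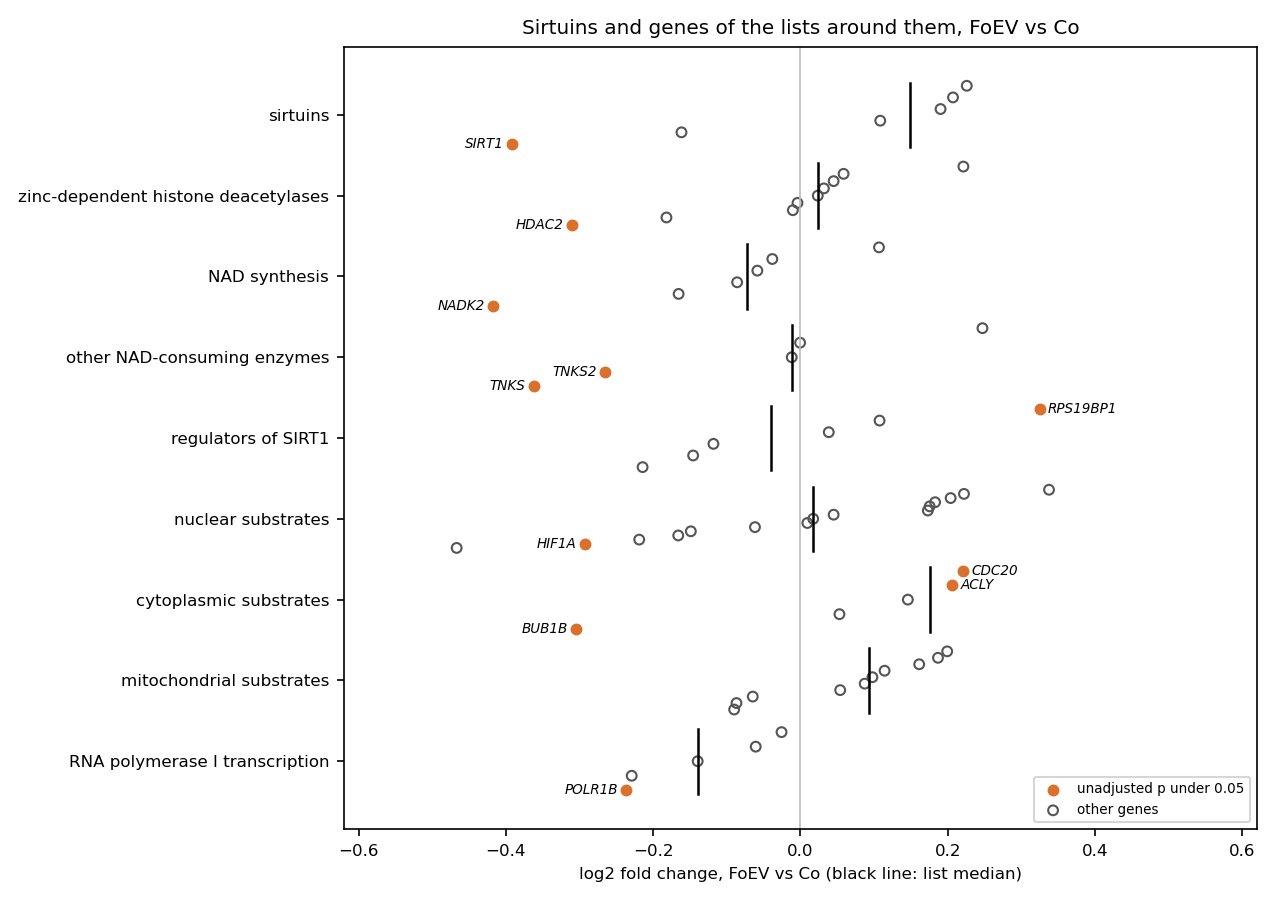
Log2 fold change in FoEV treatment vs. Co (x axis) of the genes in the fit, by list (y axis), each point a gene and each black line the median of its list. Filled points have an unadjusted p under 0.05, and 0 of the genes shown passed the adjusted threshold. Genes not reported here are not drawn but count in the medians. SIRT1 at -0.39, NADK2 at -0.42 and TNKS at -0.36 lie to the left and RPS19BP1 at 0.32 to the right.

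Genes whose level over the 15 libraries was most like that of SIRT1 were found by Pearson's r of log2 CPM. The highest values were those of NUP155 (0.919), TNPO1 (0.918), DDX5 (0.907), ETNK1 (0.906) and STXBP4 (0.889). NUP155 is a nuclear pore protein, TNPO1 an importer of proteins into the nucleus, DDX5 an RNA helicase, ETNK1 an ethanolamine kinase and STXBP4 a syntaxin-binding protein. The lowest values were -0.941 for PTPRF, a receptor tyrosine phosphatase, -0.915 for LOC515823 and -0.911 for S100A14, an S100 calcium-binding protein. Spearman's rho lay between 0.875 and 0.918 for the first group and between -0.936 and -0.914 for the second. By comparison, 90% of all genes had an r between -0.641 and 0.640.

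These genes share the libraries and the treatments with SIRT1. After the treatment means were subtracted, r was 0.853 for NUP155, 0.851 for TNPO1, 0.852 for DDX5, 0.789 for ETNK1 and 0.740 for STXBP4, and -0.892 for PTPRF. SIRT1 thus varied with these genes between pools of the same treatment too. Without Co replicate 4 and FoEV replicate 4, the 2 libraries farthest from the median SIRT1 level, r was 0.817 to 0.877 for the first group and -0.929 to -0.858 for the second. Every gene here comes from the same libraries and was picked for its r, so the values are descriptions.

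Of the listed genes, the trophectoderm keratin KRT18 ran most strongly against SIRT1, with an r of -0.892 and a rho of -0.854, and with an r of -0.763 after the treatment means were subtracted. KRT18 ranged from 2247 to 3231 CPM in Co, from 2679 to 4094 in FeEV and from 3161 to 4587 in FoEV libraries. Its log2 fold change in FoEV treatment vs. Co was 0.55 (standard error 0.13, edgeR adjusted p = 0.0818). HDAC2 ran with SIRT1, with an r of 0.780 and a rho of 0.775, and DYRK1A gave 0.769 and 0.739. These relations did not hold for each library, since FoEV replicate 4, with the lowest SIRT1 level, had more HDAC2 than FoEV replicates 1, 3 and 5.

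**Figure D4:**
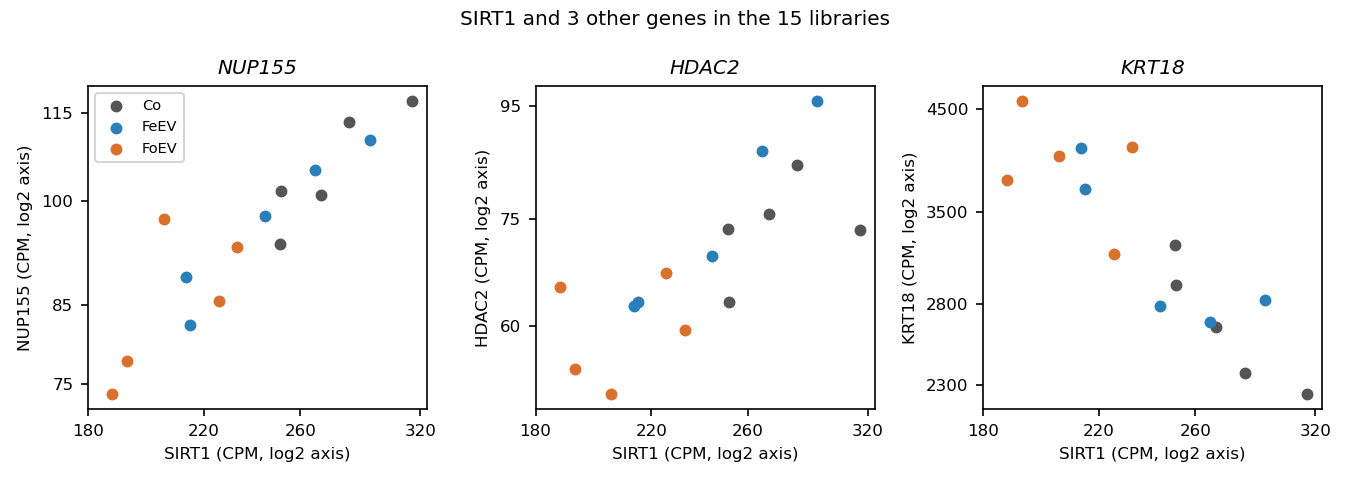
SIRT1 level (x axis, CPM on a log2 axis) against NUP155, HDAC2 and KRT18 (y axes, CPM on log2 axes), each point 1 of the 15 libraries, coloured by treatment. NUP155 (r = 0.919) and HDAC2 (r = 0.780) rise with SIRT1 and KRT18 (r = -0.892) declines, with FoEV libraries at the low end of SIRT1.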

How the data were processed

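Single-end reads (125 bases) were aligned by the authors to ARS-UCD1.2, and the deposited values are raw read counts of NCBI genes, in a table of 34773 genes and in a table of the 10832 left after their filter. The methods name QuasR Qcount for counting, and the submitters' processing notes list Trim Galore 0.4.3.1, HISAT2 2.1.0 and featureCounts 1.6.3. The kit selects strand, and the setting used in counting is not given in the sources used here. Sample titles gave the treatment of each library. Nothing states that pools came from separate cultures, so p-values measure the spread between pools.

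Counts were scaled by TMM and fitted for all 15 libraries with treatment as the only factor in edgeR 4.0.16 (R 4.3.3; estimateDisp, glmQLFit with robust=TRUE, glmQLFTest), and p-values were adjusted by Benjamini-Hochberg over the 10832 genes. The threshold for a call was an adjusted p of 0.05. SIRT3 was tested by an exact permutation test of CPM over all counts, with Python 3.11.15 and scipy 1.17.1. Log2 CPM for correlations used a prior count of 2. The scripts were tested on simulated data. Alternatives were DESeq2 1.42.0, the robust dispersion test, other scalings and filters, thinned counts, replicate blocks and leaving out each library.

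The members, the gene lists and the tests were chosen with earlier results of these data known. Named genes were every sirtuin, up to 4 genes per list and comparison with an unadjusted p under 0.05, the 2 genes of highest mean count where a list had none, the marker genes, and the 5 genes highest and 3 lowest in r with SIRT1. NAMPT, PARP1 and CCAR2 were named outside this rule, for their known roles. Sequences and transcript lengths were not used here, nor were coordinates, as the gene table at hand was of another assembly. NMNAT3 was not analysed here, and some genes that the rule would name are not reported here.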

Additional observations from a re-analysis of the deposited data

How the results depend on the processing

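The direction of SIRT1 in FoEV treatment vs. Co was the same under all 10 alternatives that kept every library and in the 15 fits that each left out 1 library. SIRT1 stayed at -0.39 in the 5 of these fits without an FeEV library, which left the FoEV and Co libraries unchanged. Its adjusted p was 0.105 as reported, and it passed the threshold with the DESeq2 Wald test (-0.40, adjusted p = 0.0163), the robust dispersion and likelihood ratio test (-0.39, adjusted p = 0.0164) and the unfiltered table (-0.40, adjusted p = 0.0261). Over all 10 alternatives the adjusted p ran from 0.0163 to 0.172. Leaving out 1 library gave values from -0.44 to -0.34 with edgeR adjusted p from 0.0633 to 0.317, the highest without Co replicate 4.

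The sign of SIRT2, SIRT4, SIRT6 and SIRT7 changed in some fits. SIRT2 in FoEV treatment vs. Co was -0.022 with thinned counts and ran from -0.015 to 0.18 when 1 library was left out. Leaving out 1 library gave -0.061 to 0.51 for SIRT4 and -0.023 to 0.37 for SIRT7 in this comparison, -0.14 to 0.19 for SIRT7 in FeEV treatment vs. Co, and -0.21 to 0.27 for SIRT6 and -0.040 to 0.30 for SIRT7 in FoEV treatment vs. FeEV treatment. With thinned counts SIRT7 in FeEV treatment vs. Co was -0.095, and with the likelihood ratio test SIRT6 in FoEV treatment vs. FeEV treatment was -0.040. None of these values was past the threshold, and the cause was not tested.

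The number of genes called in FoEV treatment vs. Co was 1 in the edgeR fit described above. It was 144 with the Wald test, 311 with the likelihood ratio test as rerun here and 173 with the unfiltered table. It was 5 with only both treatments in the fit, and 0 to 58 when 1 library was left out, with 58 without FoEV replicate 2. In FeEV treatment vs. Co, where 0 genes were called by edgeR and 449 had an unadjusted p under 0.05, the numbers were 1, 6 and 13 with the first 3 settings and 0 to 1 without 1 library. In FoEV treatment vs. FeEV treatment, with 0 calls and 923 genes at the unadjusted threshold, they were 3, 31 and 22, and 0 to 1.

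Replicate numbers were not taken as pairs, since no label ties them to a shared culture and not every same-numbered pair had a correlation above 0.1. Over all filtered genes, libraries with the same title number had a mean correlation of deviations of 0.034 in FoEV and Co, 0.14 in FeEV and Co and 0.19 in FoEV and FeEV, with 1, 3 and 3 of 5 pairs above 0.1, beside means of -0.0084, -0.034 and -0.046 for libraries with other numbers. With the title number as a replicate block, 57 genes were called in FoEV treatment vs. Co and SIRT1 had an adjusted p of 0.0569. With the number in the sample descriptions as the block, 12 genes were called in FoEV treatment vs. Co and 1 in FoEV treatment vs. FeEV treatment. SIRT1 in FoEV treatment vs. Co then had an edgeR adjusted p of 0.172. For SIRT3, an exact sign-flip test over the pairs by title number gave a difference of 1.53 CPM in FoEV treatment vs. Co (p = 0.0625, the smallest that 5 pairs allow) and 0.790 in FeEV treatment vs. Co (p = 0.125). Leaving out 1 library gave SIRT3 differences from 0.683 to 0.977 CPM in FeEV treatment vs. Co, with exact permutation p from 0.0159 to 0.0556, and from 1.35 to 1.70 CPM in FoEV treatment vs. Co, with exact permutation p from 0.00794 to 0.0238.

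Of the 5 genes most like SIRT1 by Pearson's r, 4 were among the 5 highest by Spearman's rho. Depth limits SIRT3, SIRT4 and SIRT6 most, with at most 24 reads per library, and the libraries of the FoEV treatment were deeper than those of Co.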

Other observations

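Markers of the blastocyst lineages, other than those described with SIRT1, are given by their values. Of those in the fit, none passed the adjusted threshold in any comparison. NANOG, a pluripotency factor of the inner cell mass, was at 45.0 ± 16.7 CPM in FoEV, 52.1 ± 13.2 in FeEV and 80.4 ± 19.9 in Co embryos (SD, n = 5). Its log2 fold changes were -0.84 in FoEV treatment vs. Co (edgeR unadjusted p = 0.00641, adjusted p = 0.178) and -0.62 in FeEV treatment vs. Co (unadjusted p = 0.0342, adjusted p = 1). SOX2 and POU5F1, also of the inner cell mass, differed by -0.03 and 0.21 in FoEV treatment vs. Co. The summed level of the 3 genes ranged from 243 to 302 CPM of all counts in Co, from 237 to 297 in FeEV and from 211 to 298 in FoEV libraries.

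Of the trophectoderm markers, GATA3 was at 237 ± 13.6 CPM in FoEV and 207 ± 11.9 in Co embryos (SD, n = 5; edgeR unadjusted p = 0.0208, adjusted p = 0.238). Its FoEV and Co libraries did not overlap, as was the case with higher FoEV levels for 136 of 10832 genes. KRT8 differed by 0.25 (edgeR adjusted p = 0.289) and CDX2 by 0.21 (adjusted p = 0.649) in FoEV treatment vs. Co. The hypoblast factors GATA6 and GATA4 differed by -0.03 and 0.32 in the same comparison, and SOX17 lay outside the filtered table with 2 to 14 counts per library.

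Genes of other cell types were counted as well. PAX8, expressed in oviduct epithelium, differed by -0.20 in FoEV treatment vs. Co. FOXJ1 and CAPS, markers of ciliated cells, had at most 4 and 8 counts in a library. Of the cumulus and granulosa genes, FSHR differed by -0.55 in FeEV treatment vs. Co (edgeR adjusted p = 1) and CYP19A1, at 25.1 ± 7.50 CPM in FoEV and 17.9 ± 3.30 in Co embryos (SD, n = 5), by 0.48 in FoEV treatment vs. Co (adjusted p = 0.389). HAS2, TNFAIP6 and PTX3 had at most 13, 3 and 1 counts in a library, and the leukocyte gene PTPRC at most 2.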
